A study of Mus musculus with 10 samples.

Results

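Cytosine methylation at CpG sites is written, maintained, removed and read by different proteins, and 8 genes of this machinery were followed here among the 24062 genes listed in the count files of 10 mouse libraries. The rule that chose them is a list of names and uses no measured value. *Dnmt3a* and *Dnmt3b* encode the methyltransferases that place new methyl groups, *Dnmt1* encodes the one that copies methylation onto the daughter strand after replication, and *Uhrf1* encodes the protein that brings DNMT1 to hemimethylated sites. *Tet1*, *Tet2* and *Tet3* encode the dioxygenases that oxidize methylcytosine on the way to its removal. *Mbd2* encodes a reader that binds methylated CpG, so the group holds a cofactor and a reader besides writers and erasers. DNMT3A and TET2 are widely studied in blood formation, where loss of either is known to change how hematopoietic stem cells self-renew and differentiate.

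RNA was sequenced from wild-type C57BL/6J LSK (Lin-SCA1+KIT+) marrow progenitors after culture on plastic-bound protein. In the no Notch control the protein was IgG, and 4 libraries were made from cells harvested on day 14. Their labels carry the names D1, D2, R1 and R2, which the labels do not explain. In the Notch cultures the protein was the ligand Delta1 at high density. From these, DN1 (KIT++CD44+CD25-) cells were sorted without IL-7 in the medium, and DN2a (KIT++CD44+CD25+) and DN2b (KIT+CD44lo CD25+) cells were sorted from cultures with IL-7. There were 2 libraries of each DN stage, named replicate 1 and replicate 2 after the year in their labels. By the study's methods, replicates came from independent LSK isolates and the DN stages were sorted from each isolate. Which isolate a library came from is not labelled, so DN libraries of 1 year may share one. By the methods IL-7 was added to Delta1 cultures. Stage and IL-7 therefore cannot be told apart between DN1 and the later stages, both of which had IL-7. Between the DN groups and the control, ligand and sorting cannot be told apart, nor can IL-7 in DN2a and DN2b, and the labels give a harvest day for the control only. Values below are CPM (counts-per-million, scaled to the reads counted on genes in each library). The test covered 12221 genes that reached 1 CPM in 2 or more libraries, and all 8 genes passed. A gene was called when its adjusted p in edgeR's quasi-likelihood test was under 0.05, and log2 fold changes carry their standard error (SE).

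The libraries held 12354635 to 35367925 reads on genes, and 3 counts, taken as the floor of detection, were worth 0.0848 to 0.243 CPM. The labelled cell types were checked against markers. The summed level of 11 T lineage genes was 2.62 to 9.61 CPM in the control, 422 to 529 CPM in DN1, 2605 to 3639 CPM in DN2a and 4983 to 6247 CPM in DN2b. The control libraries instead carried 9 granulocyte genes at 22160 to 61950 CPM and 8 macrophage genes at 8553 to 16360 CPM. In DN2a and DN2b the granulocyte sum was at most 20.2 CPM, and in all 4 libraries of these stages *Elane*, *Ngp*, *S100a8*, *S100a9*, *Camp* and *Csf3r* were at or under the floor. DN1 replicate 1 stood apart from replicate 2, with granulocyte genes at 2980 against 86.6 CPM, macrophage genes at 306 against 63.9 CPM, erythroid and megakaryocyte genes at 656 against 137 CPM and mast cell and basophil genes at 2629 against 628 CPM. The summed mast cell and basophil genes were at 252 to 562 CPM in DN2a and DN2b and at 38.7 to 174 CPM in the control. Most of the sum in DN2a and DN2b was *Cpa3*, at 250 to 553 CPM against 8.26 to 59.4 CPM in the control. Of the 7 genes, 1 was called higher and 3 lower than the control in DN2a (all genes 21.2% and 24.3%). In DN2b 1 was called higher and 5 lower (19.9% and 22.5%). Each DN group differed from the control in granulocyte and macrophage markers as well as in the genes below, and the part of these markers in any difference was not tested. In bulk RNA, fewer cells of a type and less RNA per cell cannot be told apart.

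Promoter sequences were matched for 7 of the 8 genes, in 12 windows among the 32851 of the RefSeq table for GRCm38.p6. A window runs from 250 bases before a transcription start to 50 bases after it. The CpG ratio, the number of CpG found over that expected from the C and G content, had a median of 0.384 over all windows. The 4 genes that were called in any comparison have 1 window each. *Tet2* had the highest ratio among the members' windows, 1.17, above that of 99.2% of all windows, followed among these 4 by *Dnmt3b* at 0.694, *Tet1* at 0.607 and *Tet3* at 0.576. They are shown because CpG is the site these enzymes act on and the study compared promoters by their CpG content. The 150 bases before each start, or 88 for *Tet1*, where the remainder is an untranslated exon of another *Tet1* transcript, are given 5′ to 3′ on the gene's strand with every CpG in capitals. They are at chr2:153649299-153649448 (+) for *Dnmt3b*, chr10:62887325-62887412 (-) for *Tet1*, chr3:133544391-133544540 (-) for *Tet2* and chr6:83441679-83441828 (-) for *Tet3*. In the GENCODE annotation of the same build, the *Tet1*, *Tet2* and *Tet3* stretches lie in introns of longer transcripts of the same gene, that of *Tet3* overlaps a first exon of the opposite-strand gene *B230319C09Rik*, and that of *Dnmt3b* lies in an intron of *Dnmt3bos*.
Dnmt3b: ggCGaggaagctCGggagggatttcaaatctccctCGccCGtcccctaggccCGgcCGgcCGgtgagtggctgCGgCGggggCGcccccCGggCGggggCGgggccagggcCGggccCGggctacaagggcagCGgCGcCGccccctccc
Tet1: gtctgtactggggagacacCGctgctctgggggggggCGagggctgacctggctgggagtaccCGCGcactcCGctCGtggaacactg
Tet2: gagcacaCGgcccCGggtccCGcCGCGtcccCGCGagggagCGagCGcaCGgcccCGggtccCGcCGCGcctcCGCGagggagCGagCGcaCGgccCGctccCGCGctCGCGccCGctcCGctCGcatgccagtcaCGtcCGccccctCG
Tet3: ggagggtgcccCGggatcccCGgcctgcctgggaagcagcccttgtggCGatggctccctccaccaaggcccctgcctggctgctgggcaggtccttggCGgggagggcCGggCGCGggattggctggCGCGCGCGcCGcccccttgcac

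These stretches hold 18 CpG in *Dnmt3b*, 6 in *Tet1*, 30 in *Tet2* and 12 in *Tet3*. The other members' windows ranged from a ratio of 0.101, at the most upstream start of *Dnmt1*, to 1.06 at start 2 of *Dnmt3a*. The letters bound by E2F factors, which drive S phase genes, were searched on both strands as TTTGGCGC, TTTCGCGC, TTTCCCGC or TTTGCCGC and occur in 2.26% of all windows. Among the members they occur at start 3 of *Dnmt1* and at start 2 of *Uhrf1*, starts being numbered from upstream, the pair of genes that acts together at replication. The stretch is chr9:20952824-20952853 (-) for *Dnmt1*, where the letters begin at -219 from the start on the opposite strand. The same window holds a further match, TTTGGCGC on the gene's own strand, that begins at 33 past the start and is not printed. The *Dnmt1* stretch lies in the untranslated part of an exon of a transcript that begins farther upstream, and the *Uhrf1* stretch in an intron of 2 such transcripts. It is chr17:56304117-56304146 (+) for *Uhrf1*, where they begin at -185 from the start on the gene's own strand. Capitals mark the letters.
Dnmt1 start 3: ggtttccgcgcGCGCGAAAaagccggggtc
Uhrf1 start 2: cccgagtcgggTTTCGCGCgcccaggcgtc

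The letters TGGGAA, the core bound by the Notch effector RBPJ, occur in 25.6% of all windows on either strand. Among the members they occur at *Tet1* and *Tet3*, the most upstream start of *Dnmt1* and start 3 of *Dnmt3a*. A match to such letters is only a description of the window.

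*Dnmt3b*, the de novo methyltransferase, was higher in every DN library than in every control library (gene at chr2:153649450-153687730, + strand). In the control libraries D1, D2, R1 and R2 it was at 5.28, 10.01, 9.98 and 19.99 CPM. The DN1 libraries had 75.5 and 89.4 CPM, the DN2a libraries 85.7 and 45.5 CPM, and the DN2b libraries 73.4 and 27.7 CPM. No DN library overlapped the control, and the lowest, DN2b replicate 2, was still above R2. The log2 fold change over the control was 2.65 (SE 0.47, adjusted p = 0.00376) in DN1. It was 2.50 (SE 0.47, adjusted p = 0.00293) in DN2a and 2.15 (SE 0.47, adjusted p = 0.00651) in DN2b. The call was made against D1 and D2 alone and against R1 and R2 alone in all 3 comparisons. Without DN2b replicate 1 the DN2b value was 1.24 and was not called, with an adjusted p of 0.112. An antisense gene, *Dnmt3bos*, overlaps *Dnmt3b*, and without a stated strand setting their reads cannot be told apart.

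*Dnmt3a*, which does the same reaction, was called in no comparison. It was at 49.7, 15.5, 60.2 and 43.6 CPM in D1, D2, R1 and R2, and at 64.2 and 28.4 CPM in DN1, 39.8 and 23.4 CPM in DN2a, and 26.1 and 26.0 CPM in DN2b. All groups overlapped the control, in which D2 was lowest. The log2 fold change over the control was -0.15 (SE 0.48) in DN1, -0.49 (SE 0.49) in DN2a and -0.76 (SE 0.50) in DN2b. *Dnmt3a* also has an overlapping antisense gene, *Dnmt3aos*.

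Within a library, *Dnmt3b* outweighed *Dnmt3a* in all 6 DN libraries and in 2 of the 4 control libraries. Per kilobase of exon, *Dnmt3b* was 0.244, 1.48, 0.380 and 1.05 times *Dnmt3a* in D1, D2, R1 and R2. DN1 had ratios of 2.70 and 7.22, DN2a of 4.94 and 4.45, and DN2b of 6.43 and 2.44. Every DN library was above every control library, and the control libraries spread more widely among themselves than the gap between D2 and the lowest DN library. *Dnmt3l*, which encodes the catalytically inactive partner of the de novo enzymes, went the other way. It was at 5.14, 9.65, 8.45 and 7.05 CPM in the control, while DN1 had 12 and 0 counts, DN2a 4 and 0, and DN2b 3 and 4. It was called lower in all 3 DN groups, and its DN values lie near the floor of 3 counts.

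**Figure D1:**
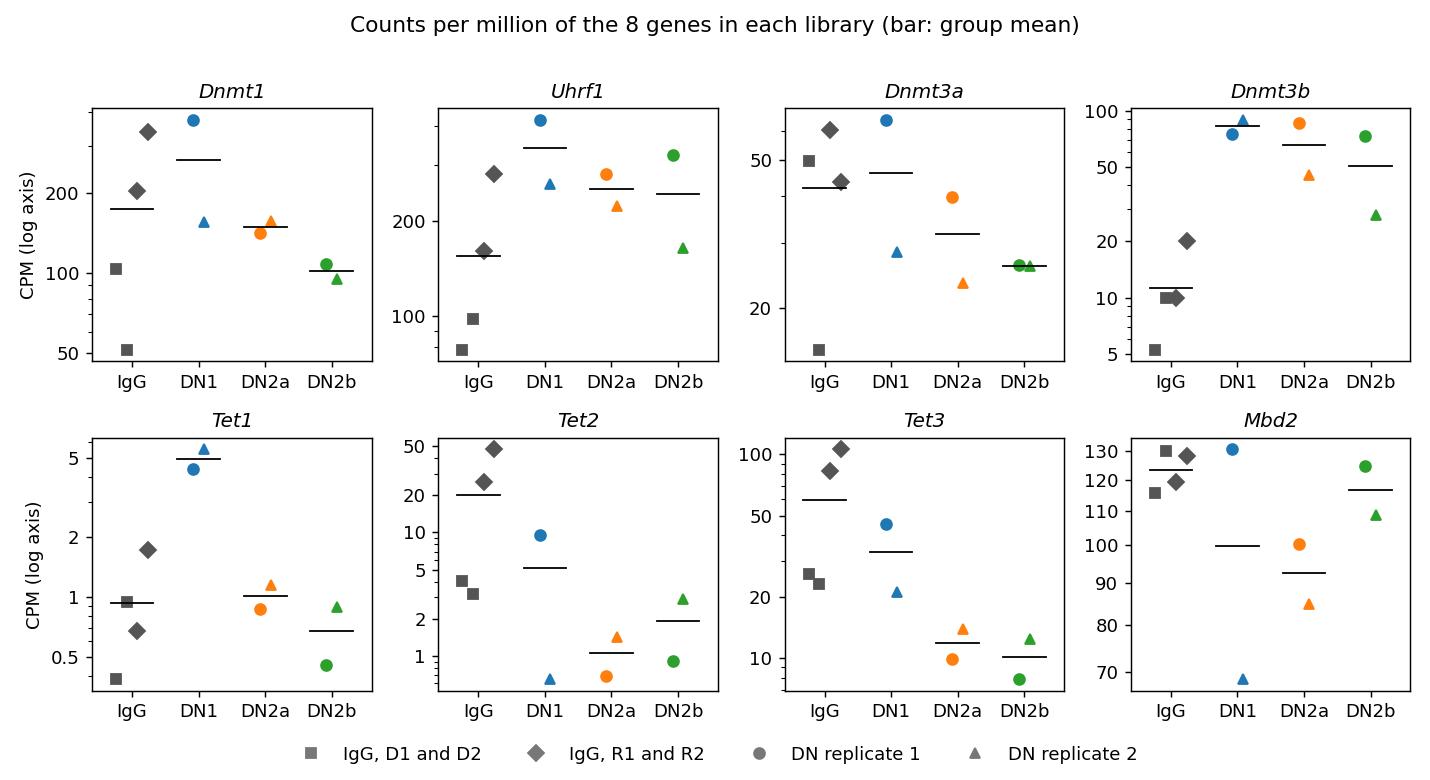
CPM (log axis, own scale per panel) of the 8 genes in each library of the no Notch control (IgG) and the 3 DN stages, with the group mean as a bar. *Dnmt3b* is at 27.7 CPM or more in every DN library and at 19.99 CPM or less in the control, *Tet1* stands out in DN1, and the R libraries carry the highest *Tet2* and *Tet3*.

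*Dnmt1*, the maintenance methyltransferase, varied more among the control libraries than between groups. It was at 103, 51.4, 203 and 338 CPM in D1, D2, R1 and R2. The values were 375 and 155 CPM in DN1, 141 and 156 CPM in DN2a, and 108 and 94.4 CPM in DN2b. DN1 replicate 1 and R2 were highest, and each DN group overlapped the control. The log2 fold change over the control was 0.40 (SE 0.55) in DN1, -0.22 (SE 0.56) in DN2a and -0.77 (SE 0.58) in DN2b, and none was called. Against R1 and R2 alone, *Dnmt1* was called lower in DN2b, at -1.34 with an adjusted p of 0.0275. Against D1 and D2 alone the DN2b value was 0.15, on the other side of 0.

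*Uhrf1*, the recruiter of DNMT1, was at 78.5, 98.2, 161 and 282 CPM in D1, D2, R1 and R2. The DN values were 418 and 262 CPM in DN1, 283 and 224 CPM in DN2a, and 324 and 165 CPM in DN2b. All DN libraries lay above D1 and D2, DN2b replicate 2 was close to R1, and R2 lay within the DN range. Its log2 fold change over the control was 0.92 (SE 0.42, adjusted p = 0.127) in DN1, 0.70 (SE 0.42, adjusted p = 0.202) in DN2a and 0.65 (SE 0.43, adjusted p = 0.236) in DN2b. Against D1 and D2 alone it was called higher in DN1, at 1.504 (adjusted p = 0.0376), and in DN2a, at 1.26 (adjusted p = 0.0440). Without R2 alone the DN1 value was 1.25 and was called (adjusted p = 0.0382). Per kilobase, *Uhrf1* was 1.91 to 5.15 times *Dnmt1* in the DN libraries and 1.31, 3.28, 1.36 and 1.43 times in D1, D2, R1 and R2.

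*Tet1* had a low level per kilobase in each of the 4 groups, and it was higher in DN1 than in the control. The control libraries D1, D2, R1 and R2 had 8, 24, 24 and 51 counts, or 0.388, 0.949, 0.679 and 1.72 CPM. DN1 had 99 and 102 counts, or 4.37 and 5.52 CPM. DN2a had 0.874 and 1.15 CPM and DN2b 0.455 and 0.890 CPM, within the control range. Both DN1 libraries were above all other libraries. The log2 fold change over the control was 2.18 (SE 0.60, adjusted p = 0.0230) in DN1, 0.09 (SE 0.64) in DN2a and -0.52 (SE 0.67) in DN2b, the last 2 not called. The DN1 call was lost against D1 and D2 alone (adjusted p = 0.0691), against R1 and R2 alone (0.0775), without DN1 replicate 2 (0.106) and without R1 (0.0646), with values of 1.94 to 2.45. Without DN1 replicate 1, the *Tet1* value was 2.40. In replicate 2 alone, 4 of 7 mast cell and basophil genes were above every control library and 2 below. The share of all genes outside the control range in that library was not counted. Like *Tet1*, genes of other cell types were higher in DN1: *Mcpt4*, a mast cell protease, was at 954 and 144 CPM in DN1 and at most 4.65 CPM in the other groups, and *Fcer1a*, a chain of the IgE receptor, at 320 and 67.3 CPM against at most 5.58 CPM. Of the 7 mast cell and basophil genes, 4 were called higher in DN1 and 1 lower. Of the 5 erythroid and megakaryocyte genes tested, 3 were called higher and 1 lower. *Itga2b*, an integrin gene chosen after its values were seen, was at 395 and 131 CPM in DN1. It was at 119 and 135 CPM in DN2a and at most 28.0 CPM in the control. *Gata1* and *Klf1*, added after their values were seen, were high in DN1 replicate 1 only. In DN1 *Gata1* was at 94.9 and 2.055 CPM, against at most 4.35 CPM in the control. *Klf1* was at 61.4 and 0.649 CPM, against at most 1.38 CPM. Of 6 progenitor genes 4 were called higher and 1 lower, among them the cytokine receptor gene *Flt3*, with a log2 fold change of 3.28 (SE 0.60, adjusted p = 0.00447), and the transcription factor gene *Meis1*, with 3.27 (SE 0.40, adjusted p = 0.000845). The summed progenitor genes were at 1073 and 1838 CPM in DN1, 473 to 602 CPM in DN2a and DN2b, and 449 to 1178 CPM in the control. The part of these genes' cells in the level of *Tet1* was not tested.

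*Tet2* had its highest levels in the R control libraries and was low in DN2a and DN2b. D1, D2, R1 and R2 had 4.02, 3.16, 25.7 and 47.1 CPM. DN1 had 9.59 and 0.649 CPM, DN2a 0.692 and 1.44 CPM, and DN2b 0.911 and 2.91 CPM. DN2a and DN2b lay below all control libraries, and the DN1 libraries lay on either side of D1 and D2. The log2 fold change over the control was -4.19 (SE 1.45, adjusted p = 0.0400) in DN2a, which was called. It was -2.16 (SE 1.26, adjusted p = 0.219) in DN1 and -3.36 (SE 1.38, adjusted p = 0.0747) in DN2b. The DN2b value was called by DESeq2, at -3.35 (adjusted p = 0.00615), against R1 and R2 alone, at -4.18 (0.0257), and without DN1 replicate 1, DN1 replicate 2 or D2 (0.0467 to 0.0497). Against D1 and D2 alone the DN2a value was -2.01 and was not called, with an adjusted p of 0.237. The call was also lost without DN2a replicate 1, without DN2a replicate 2, without R1 and without R2, with adjusted p of 0.0706 to 0.207 and values of -4.82 to -3.46. DN1 replicate 1 holds 217 counts and replicate 2 holds 12, and without replicate 1 the DN1 value was -5.01 (adjusted p = 0.0813).

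*Tet3* was the most abundant *Tet* transcript per kilobase in each library, with 63.2% to 86.1% of the summed *Tet* level. It was at 25.7, 23.1, 82.7 and 106 CPM in D1, D2, R1 and R2. DN1 had 45.5 and 21.04 CPM, DN2a 9.87 and 13.9 CPM, and DN2b 7.87 and 12.4 CPM. DN2a and DN2b lay below every control library, while DN1 overlapped D1 and D2. Over the control the log2 fold change was -2.31 (SE 0.63, adjusted p = 0.0154) in DN2a and -2.56 (SE 0.64, adjusted p = 0.0118) in DN2b, both called. In DN1 it was -1.05 (SE 0.58, adjusted p = 0.199). Against D1 and D2 alone, the DN2b value was -1.51 (adjusted p = 0.0427), and the DN2a value was -1.29 with the call lost (adjusted p = 0.0600). Without DN2a replicate 1 or 2 the DN2a call was lost as well, at -2.05 and -2.62 (adjusted p = 0.120 and 0.0635), as was the DN2b call without DN2b replicate 1, at -2.29 (0.0957). *Tet2* and *Tet3* overlap antisense or other opposite-strand genes in the annotation, so part of their reads is uncertain in the same way as for *Dnmt3b*.

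*Mbd2*, the reader, had the smallest ratio of highest to lowest control library among the 8 genes, 1.13. It was at 116, 130, 119 and 128 CPM in D1, D2, R1 and R2, and at 131 and 68.7 CPM in DN1, 100.2 and 84.7 CPM in DN2a, and 125 and 109 CPM in DN2b. On library totals, DN2a lay below every control library and the other stages overlapped the control. On the scale of the fold changes (TMM), DN1 also lay below every control library, at 110 and 63.3 against at least 116 CPM. Its log2 fold change over the control was -0.60 (SE 0.25, adjusted p = 0.0991) in DN1, -0.50 (SE 0.25, adjusted p = 0.134) in DN2a and -0.16 (SE 0.25) in DN2b, and none was called. Without DN1 replicate 1 the DN1 value was -1.05 and was called, with an adjusted p of 0.0275.

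**Figure D2:**
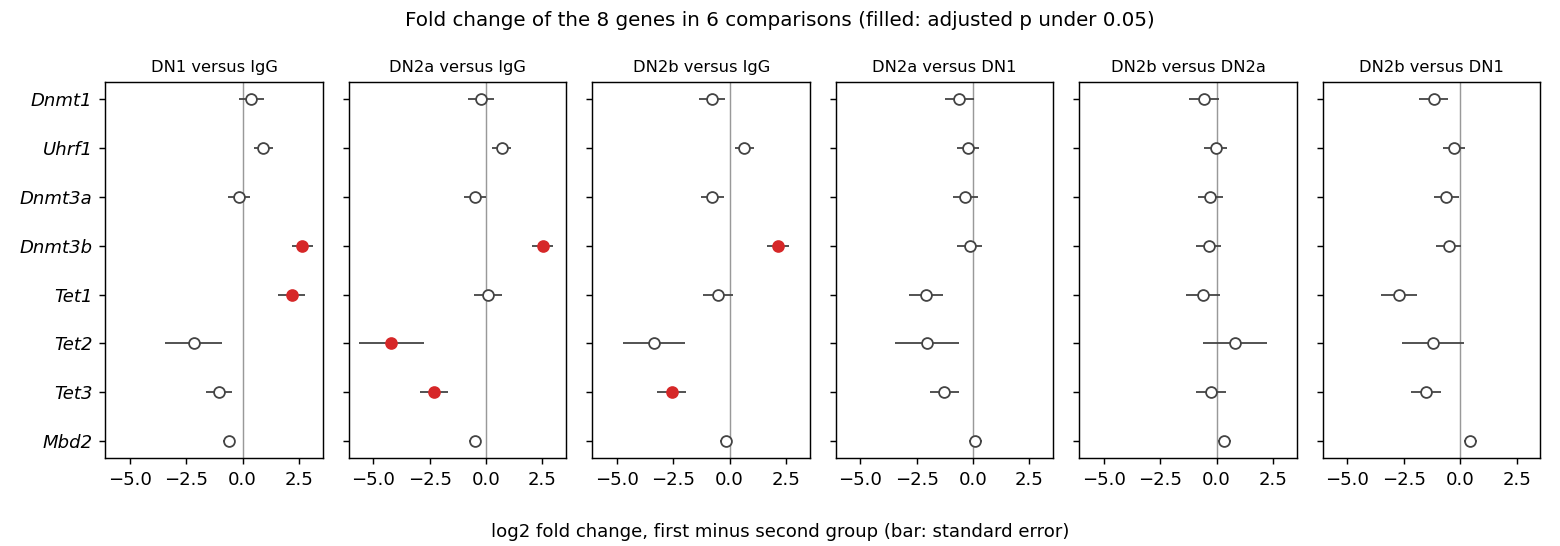
Log2 fold change (first minus second group, bar for the standard error) of the 8 genes in 6 comparisons from the edgeR fit, with filled points for an adjusted p under 0.05. *Dnmt3b* is filled in the 3 comparisons with IgG, *Tet1* in DN1, *Tet2* in DN2a and *Tet3* in DN2a and DN2b, and no point is filled between DN stages.

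Counted over the group, 2 of the 8 genes were called in DN1 against the control, beside 31.4% of all genes tested. In DN2a there were 3 (all genes 45.5%) and in DN2b 2 (all genes 42.5%). With *Tet2*, DESeq2 called 3 in DN2b (all genes 48.5%), and with *Tet2* and *Dnmt1* the fit against R1 and R2 alone called 4 (43.5%). On library totals, the libraries of the compared groups did not overlap for 2 genes in DN1 (all genes 50.7%), 4 in DN2a (61.6%) and 3 in DN2b (57.7%). On the scale of the fold changes (TMM), *Mbd2* did not overlap in DN1 either, and the share of all genes was not counted. The median log2 fold change over the 8 was 0.12 in DN1, -0.35 in DN2a and -0.64 in DN2b, against 0.01, -0.05 and -0.05 over all genes. These comparisons share the 4 control libraries. In the test of any difference among the 4 groups, *Dnmt3b* (adjusted p = 0.00618), *Tet3* (0.0160) and *Tet1* (0.0271) were called, beside 42.0% of all genes, and *Tet2* was not (0.0620). DESeq2 (all genes 51.7%) and the fit with no filter on low counts (27.5%) called *Tet2* in addition to these 3.

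Which control libraries entered the fit mattered for *Tet2*, *Tet3*, *Dnmt1* and *Uhrf1*. The R libraries had a mean of 36.4 CPM of *Tet2* against 3.59 CPM in the D libraries, and 271 against 77.4 CPM of *Dnmt1*. *Tet2* and *Tet3* in DN1 had log2 fold changes of 0.04 and 0.00125 against D1 and D2, and of -2.997 and -1.66 against R1 and R2, where *Tet3* was called (adjusted p = 0.0225). The summed granulocyte genes were 22160 and 61950 CPM in D1 and D2 and 38870 and 23510 CPM in R1 and R2, so they overlapped between the letters. The summed mast cell and basophil genes did not, at 102 and 174 CPM in D1 and D2 and at 38.7 and 75.2 CPM in R1 and R2. Of that list only *Cpa3*, at 44.3 and 59.4 against 8.26 and 17.6 CPM, and *Fcer1a* did not overlap when taken singly. *Mcpt8*, *Cma1*, *Mcpt4*, *Ms4a2* and *Prss34* overlapped. The summed genes of S phase and proliferation went the other way without overlap, at 2134 and 2556 CPM in D1 and D2 and at 2868 and 4562 CPM in R1 and R2. Taken singly, 11 of the 20 were higher in both R libraries than in both D libraries and 9 overlapped. The share of all genes that separates the letters in this way was not counted. *Mki67*, the proliferation marker, chosen from these genes after its values were seen, was at 25.8 and 8.54 CPM against 192 and 404 CPM. The part of either list in the differences between the letters was not tested.

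**Figure D3:**
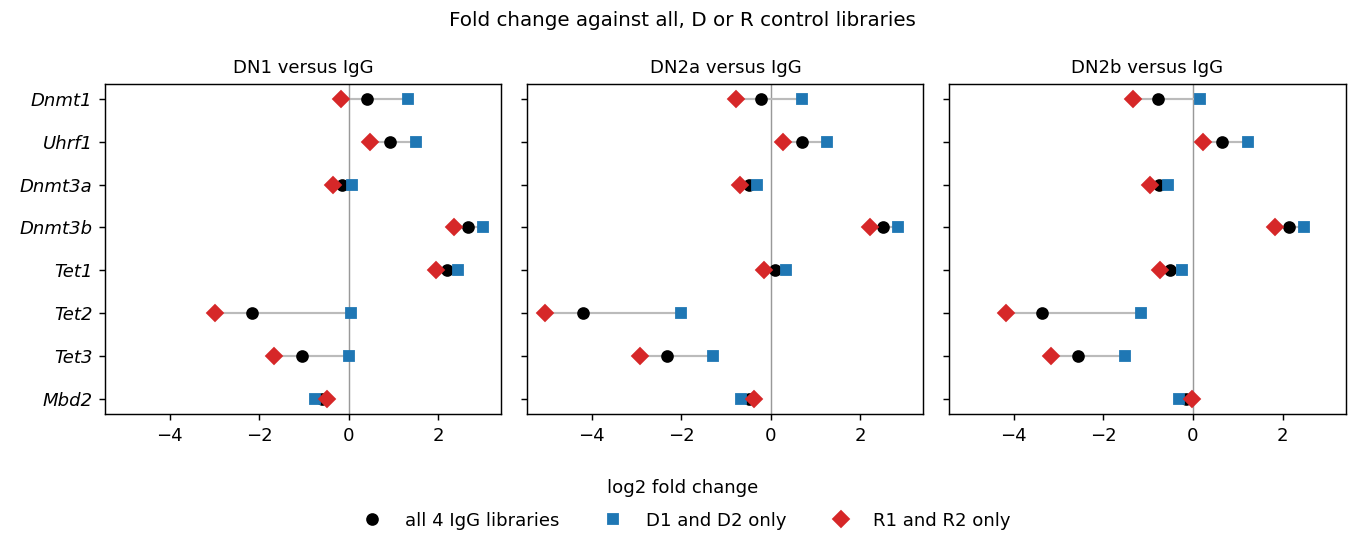
Log2 fold change of the 8 genes in each DN stage over all 4 control libraries (circles), D1 and D2 only (squares) or R1 and R2 only (diamonds). *Dnmt3b* stays between 1.84 and 3.004, while *Tet2* in DN1 runs from 0.04 to -2.997 and *Dnmt1* in DN2b from 0.15 to -1.34.

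Between DN stages none of the 8 genes was called, beside 0.401% of all genes in DN2a against DN1, 1.91% in DN2b against DN1 and 0.0% in DN2b against DN2a. At an unadjusted p under 0.05 in edgeR there were 1, 2 and 0 of the 8 in these comparisons, beside 10.9%, 13.9% and 2.74% of all genes. In the order DN2a against DN1, DN2b against DN1 and DN2b against DN2a, DESeq2 called 0, 1 and 0 of the 8, beside 3.83%, 6.73% and 0.263% of all genes, and the gene was *Tet1*. *Tet1* was at 4.37 and 5.52 CPM in DN1 and at most 1.15 CPM in the later stages, without overlap. Its log2 fold change was -2.70 (SE 0.78, adjusted p = 0.143) in DN2b against DN1 and -2.10 (SE 0.75, adjusted p = 0.334) in DN2a against DN1, and DESeq2 gave an adjusted p of 0.0280 for the former. *Tet3* was at -1.51 (SE 0.66, adjusted p = 0.356) in DN2b against DN1, again without overlap. On library totals, the libraries did not overlap for 5 of the 8 genes there (all genes 45.6%). They did not for 2 in DN2a against DN1 (43.7%) and for 2 in DN2b against DN2a (30.6%). On the scale of the fold changes (TMM), *Dnmt3a* overlapped, at 26.8 and 25.6 CPM in DN2b and 53.9 and 26.2 CPM in DN1. *Dnmt3b* overlapped there too, at 75.3 and 27.2 CPM in DN2b and 63.4 and 82.4 CPM in DN1. The share of all genes on that scale was not counted. With 2 libraries a stage, the SE of the members lay between 0.29 and 1.42 on the log2 scale.

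Genes can be compared per kilobase of exon, given as RPKM (CPM divided by the exon length in kilobases). On this scale *Uhrf1* ranked first in the 3 DN stages. Its means were 92.7 (SD 30.1), 69.1 (SD 11.4) and 66.6 (SD 30.7) RPKM in DN1, DN2a and DN2b. In DN2b its range overlapped that of *Mbd2*, the next in rank. In the control *Mbd2* ranked first at 50.3 RPKM (SD 2.87, n = 4), and *Uhrf1* and *Dnmt1* followed at 42.2 and 27.6 RPKM, the 3 ranges overlapping. *Dnmt3b* held rank 6 in the control at 2.62 RPKM (SD 1.43) and rank 4 in each DN stage, at 19.1, 15.2 and 11.7 RPKM. In DN1, DN2a and DN2b it was above *Dnmt3a*, the next in rank, in every library. In the control *Tet3*, *Dnmt3a*, *Dnmt3b* and *Tet2*, at ranks 4 to 7, overlapped from each to the next. With the exons of basic transcripts, *Tet1* had the lowest mean in every group, between 0.0468 and 0.344 RPKM. With those of all annotated transcripts, an alternative chosen after seeing the data, *Tet2* was lowest in DN1, at 0.303 against 0.320 RPKM, and in DN2a, at 0.0631 against 0.0655 RPKM. On the first scale, *Tet1* was below *Tet2* within every library of the control, DN2a and DN2b and within DN1 replicate 1. DN1 replicate 2 went the other way, with *Tet1* at 0.384 and *Tet2* at 0.0705 RPKM. The ranges of both genes overlapped in DN1 and DN2a.

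Summed per kilobase, the 3 *Dnmt* genes exceeded the 3 *Tet* genes in every library. The ratio was 8.52, 5.06, 4.11 and 4.40 in D1, D2, R1 and R2. DN1 had ratios of 15.98 and 21.4, DN2a of 47.2 and 26.5, and DN2b of 45.8 and 16.7. All DN libraries were above all control libraries. Both DN1 libraries were below both DN2a libraries, and DN2b overlapped DN1 and DN2a.

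**Figure D4:**
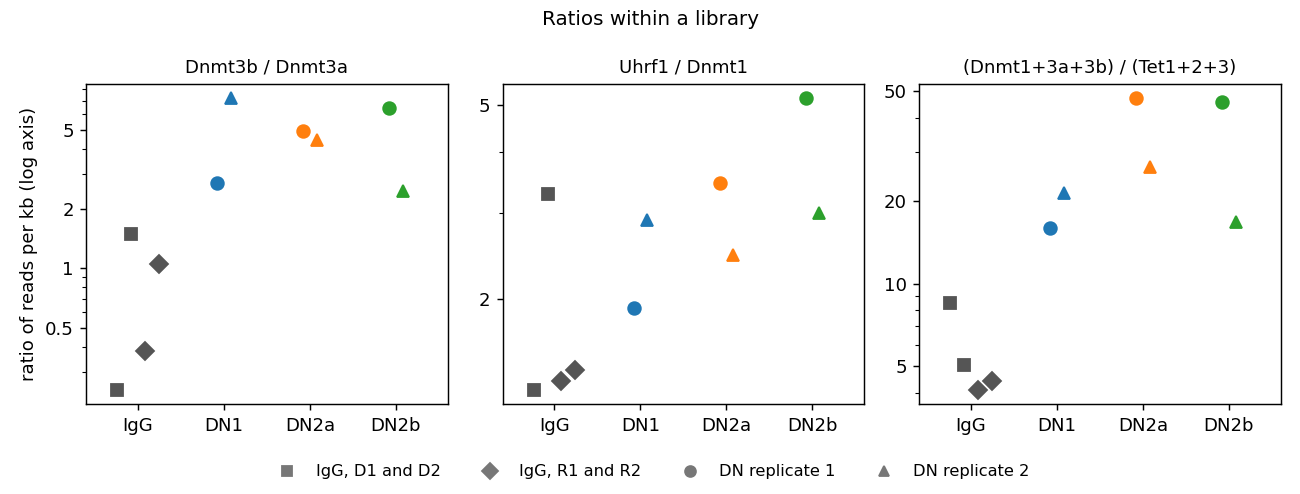
Ratios within each library of reads per kilobase (log axes): *Dnmt3b* over *Dnmt3a*, *Uhrf1* over *Dnmt1*, and the sum of the 3 *Dnmt* genes over that of the 3 *Tet* genes. The first lies at 1.48 or less in the control and at 2.44 or more in the DN libraries, the last at 8.52 or less and 15.98 or more, and the *Uhrf1* to *Dnmt1* ratio overlaps because of D2.

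Partners of maintenance methylation were next examined. Of 8 listed genes 6 were tested, and 3 were higher in DN1, 4 in DN2a and 4 in DN2b, with none lower. Of all genes tested, 14.3%, 21.2% and 19.9% were called higher in these stages and 17.0%, 24.3% and 22.5% lower. *Hells*, a chromatin remodeler needed for methylation of repeats, was at 24.5 to 69.4 CPM in the control and 90.4 to 197 CPM in the DN libraries, with log2 fold changes of 1.47, 2.10 and 1.86 (adjusted p = 0.0168, 0.00222 and 0.00417) in DN1, DN2a and DN2b. *Cdca7*, its activating partner, had values of 1.53, 1.81 and 1.74 (adjusted p = 0.00677, 0.00192 and 0.00245). *Trim28*, the corepressor, had 1.15, 1.22 and 1.16 (adjusted p = 0.0174, 0.00876 and 0.0121). *Pcna*, the replication clamp, had 0.68, 1.04 and 0.91 and was called in DN2a and DN2b (adjusted p = 0.0161 and 0.0301). The median over the 6 was 0.91, 1.13 and 1.03. Genes of S phase and proliferation were higher too, with 8 of 20 called in DN1, 13 in DN2a and 9 in DN2b and none lower, and their summed level was 2134 to 4562 CPM in the control and 3903 to 7759 CPM in the DN libraries. The part of proliferation in the levels of *Uhrf1*, *Dnmt1* and *Dnmt3b* was not tested.

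Genes of demethylation and Tet function moved both ways. Of 13 listed genes 11 were tested, with 2 higher and 4 lower in DN1 and again in DN2a, and with 4 higher and 4 lower in DN2b. *Cxxc5*, a CXXC protein that binds unmethylated CpG, was at 2.57 to 13.2 CPM in the control and 67.7 to 101 CPM in the DN libraries, with log2 fold changes of 3.32, 3.32 and 3.28 (adjusted p = 0.00174, 0.00101 and 0.00112). *Apobec1*, a cytidine deaminase known mainly for RNA editing, was at 145 to 301 CPM in the control and 2.67 to 11.3 CPM in the DN libraries. Its log2 fold changes were -4.92, -5.57 and -5.75 (adjusted p = 0.000443, 0.000170 and 0.000134). *Idh1*, a source of the alpha-ketoglutarate that TET enzymes use, had -2.21, -2.24 and -2.23 (adjusted p = 0.00175, 0.000979 and 0.00105). *Idh2*, whose enzyme makes the same product in mitochondria and which was added after its values were seen, was higher, at 91.4 to 203 CPM in the control and 232 to 448 CPM in the DN libraries. It had 1.24, 1.19 and 0.76 (adjusted p = 0.00687, 0.00521 and 0.0378). *Gadd45b*, a stress-induced gene linked to demethylation, had -2.57, -2.59 and -2.63 (adjusted p = 0.00490, 0.00292 and 0.00303).

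In the methyl donor cycle, which makes S-adenosylmethionine, 4 of 8 tested genes were higher in DN1, 5 in DN2a and 4 in DN2b. *Ahcy*, which clears the inhibitory product of methylation, was at 124 to 217 CPM in the control and 407 to 741 CPM in the DN libraries, with log2 fold changes of 1.31, 2.05 and 1.64 (adjusted p = 0.00457, 0.000394 and 0.00103). The serine hydroxymethyltransferases *Shmt1* (1.15, 1.67 and 1.40) and *Shmt2* (1.01, 1.60 and 1.51) were called higher in all 3 stages. Of 7 other methyl-CpG readers, *Zbtb33*, which encodes Kaiso, was higher at 0.96, 1.10 and 1.54 (adjusted p = 0.0332, 0.0132 and 0.00304), and 1 gene in DN1 and 2 in DN2a were lower. None of these partner genes was called between DN stages by edgeR.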

How the data were processed

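The authors aligned reads to mm10, counted them per gene with htseq-count and deposited raw counts per gene symbol for each library. The submitters' processing notes name TopHat2, Cufflinks 2.2.1 and HTSeq 0.6.1p1. The library kit marks strand, but the gene annotation and the strand setting of the counting are not given in the sources used here. The 5 summary lines were dropped, and reads aligned to more than 1 place (16.4% to 30.1% of the tally) were in no gene. 

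All 10 libraries were fitted with 4 groups in edgeR 4.0.16 (R 4.3.3, TMM factors 0.858 to 1.19, common dispersion 0.189, prior count 0.125), with Benjamini-Hochberg adjustment over the 12221 genes that reached 1 CPM in 2 or more libraries. CPM in the text use library totals and fold changes the TMM scale. RPKM use union exon lengths of GENCODE vM21 basic transcripts. The scripts were tested on simulated data. Alternatives were DESeq2 1.42.0, library totals, no filter, only the groups compared, D or R controls, each library left out, and a replicate block by label year. Deviations of same-year DN libraries correlated at 0.084 for DN1 and DN2a, 0.29 for DN1 and DN2b and 0.27 for DN2a and DN2b. The main fit has no block, and the result with the block is given below. The methods describe replicates from independent LSK isolates, with the DN stages sorted from each, but do not name the libraries of an isolate, so DN libraries of 1 year may not be independent. P-values weigh a group difference against the spread between these libraries, of which the 4 groups share 1 estimate. All 8 genes are named. Of each further list at most the 4 genes with the lowest adjusted p in DN2b against the control are named, with genes called between DN stages where a result turns on them and granulocyte genes at or under the floor in every DN2a and DN2b library, and for each member the 3 genes with the highest Pearson r. A result on these lists that the rule would name is not reported here. Members and lists were chosen with earlier results of these data known.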

Additional observations from a re-analysis of the deposited data

How the results depend on the processing

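Outside leave-one-out fits, 266 of 286 fold changes of the 8 genes kept their direction and their side of the threshold, 7 gained a call and 4 lost it. Directions turned, all without a call, against D1 and D2 alone for *Dnmt3a* (0.063), *Tet2* (0.039) and *Tet3* (0.00125) in DN1 and *Dnmt1* in DN2a (0.69) and DN2b (0.15). They turned against R1 and R2 alone for *Dnmt1* in DN1 (-0.18) and *Tet1* in DN2a (-0.15). With library totals, which moved the median of all genes by 0.26 in DN1 against the control and by -0.20 in DN2a against DN1, they turned for *Dnmt3a* in DN1 (0.13) and *Mbd2* in DN2a against DN1 (-0.11). The number of genes called in DN2b was 4 against R1 and R2 alone (43.5% of all genes) and 3 by DESeq2 (48.5%), and in DN2b against DN1 it was 1 by DESeq2 (6.73%). In the test of any difference it was 4 by DESeq2 and 4 with no filter. The cause was not tested.

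Leaving out 1 library, where the lone library of a stage is assumed to vary like the other groups, gave 1 to 3 called genes in DN1 and in DN2a, 0 to 3 in DN2b, 0 to 0 between DN stages and 2 to 4 in the test of any difference. Of all genes, 15.5% to 34.3% were called in DN1, 22.1% to 49.6% in DN2a, 22.02% to 46.7% in DN2b, at most 3.17% between DN stages and 29.8% to 44.3% in the test of any difference. Among these 480 fold changes 10 calls were lost and 5 gained, and 27 directions turned, none with a call, in the genes whose ranges follow. For DN1 against the control the ranges were -0.29 to 0.86 for *Dnmt1* and -0.76 to 0.29 for *Dnmt3a*. For DN2a against the control the ranges were -0.50 to 0.20 for *Dnmt1* and -0.16 to 0.43 for *Tet1*. For DN2a against DN1 the ranges were -1.07 to 0.067 for *Dnmt1*, -0.46 to 0.076 for *Uhrf1*, -0.77 to 0.28 for *Dnmt3a*, -0.62 to 0.21 for *Dnmt3b*, -2.93 to 0.81 for *Tet2* and -0.24 to 0.55 for *Mbd2*. For DN2b against DN2a the ranges were -0.65 to 0.38 for *Uhrf1*, -0.58 to 0.11 for *Dnmt3a*, -1.27 to 0.20 for *Dnmt3b*, -0.18 to 1.47 for *Tet2* and -0.57 to 0.062 for *Tet3*. For DN2b against DN1 the ranges were -0.87 to 0.16 for *Uhrf1*, -1.04 to 0.0017 for *Dnmt3a*, -1.42 to 0.045 for *Dnmt3b* and -2.21 to 1.65 for *Tet2*. Without DN2b replicate 1, no gene was called in DN2b against the control. The replicate block left 0 of the 8 genes called in each comparison of DN stages, as did the fit of those 6 libraries without it. Of all genes the block called 58 in DN2a against DN1, 0 in DN2b against DN2a and 233 in DN2b against DN1, and the fit without it 32, 0 and 187 of 11316.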

Other observations

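For each of the 8 genes, the 3 tested genes with the most similar pattern of log2 CPM over the 10 libraries were listed by Pearson r, as a description of libraries that share groups and depth. *Dnmt3b* was most like *4933411K20Rik* (0.992), *Ccbl2* (0.984) and *Gpsm1* (0.983). *Tet1* was most like *8430408G22Rik* (0.950), *Bcl11a* (0.950) and *Mn1* (0.932). *Tet2* was most like *Tnrc6b* (0.972), *Rps4l* (0.970) and *Mbd6* (0.964), and *Tet3* like the histone demethylase genes *Kdm3b* (0.986) and *Kdm6b* (0.985) and like *Nin* (0.983). *Dnmt1* was most like *Pcnt* (0.990), *Prdm15* (0.985) and *Ccdc134* (0.983), and *Uhrf1* like *Wrnip1* (0.974), *Cpsf4* (0.969) and *Lsm2* (0.964). *Dnmt3a* was most like *Gas8* (0.963), *Comtd1* (0.930) and *Mon1a* (0.929), and *Mbd2* like *Mctp1* (0.931), *Stoml1* (0.929) and *Chchd7* (0.929).

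Among the 8 genes themselves, *Tet2* and *Tet3* had the highest r over the 10 libraries, 0.920, and 0.674 over the 6 DN libraries alone. *Uhrf1* and *Dnmt3b* had 0.856 and 0.769. *Dnmt1* and *Uhrf1* had 0.551 and 0.614. *Dnmt3a* and *Dnmt3b* had -0.29 over all 10 and 0.339 over the DN libraries. Group differences enter each value over 10 libraries.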
